A study of Homo sapiens with 2 samples.

Results

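The collagen, MMP, ADAMTS and TIMP genes, which build, cut and protect the extracellular matrix, were followed through 1 list of PAX-8 ChIP-Seq peaks from foam cells. Members were chosen by symbol alone, as every gene named COL, number, A, number, or MMP, ADAMTS or TIMP with a number and no further suffix. A RefSeq gene table held 89 such genes, all protein-coding, of which 44 were collagens, 22 MMPs, 19 ADAMTS proteases and 4 TIMPs. Of these, 69 had at least 1 assigned peak, among the 15736 gene symbols of the list, and they held 304 of its 45360 peaks. Each of the 304 peaks belonged to 1 member only.

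The cells were THP-1, an established human monocytic leukemia line, turned into macrophages by PMA at 160 nmol/L for 24 h and then into foam cells by 48 h with oxidized low-density lipoprotein (ox-LDL). C18-3OH, a hydroxylated stearic acid, was then given, and this treatment was common to the 1 PAX-8 ChIP library and the 1 Input library. Input is chromatin sequenced without immunoprecipitation, and the list holds the peaks of the ChIP library over it. The labels state that the experiment was repeated, but 1 list was analysed here, so no value below has a replicate, and no untreated cells stand against the treated ones. Neither library's read total was found in the labels or methods, so sequencing depth is unknown. Each peak carries the tags counted in it, a fold enrichment, 10 times the negative log10 of a p-value as its score, and a class relative to a RefSeq transcript on hg19. Intervals given below are 95% intervals and cover counting error only.

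PAX-8 is a paired-box transcription factor known from thyroid, kidney and the female reproductive tract. Fibrillar collagens form the tensile fibrils of the arterial wall and of the fibrous cap over an atherosclerotic plaque, type IV collagens form the sheet of basement membranes, and other collagens link or decorate these structures. MMPs cut collagen, elastin and other matrix proteins, ADAMTS proteases trim procollagen or cut proteoglycans, TIMPs inhibit MMPs, and macrophages in plaques are a known source of several of these enzymes. ChIP-Seq shows where the antibody enriched DNA and does not measure the expression of the gene to which a peak is assigned.

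Most of these genes had a peak somewhere, and few had one at the start site. A peak was assigned to 69 of 89 members (77.5%, Wilson interval 67.8 to 85.0%), against 54.8% of the 20052 protein-coding genes. A promoter peak, within 2 kb of a listed start site, was assigned to 16 members (18%, 11.4 to 27.2%), against 13.3% of protein-coding genes. The interval for any peak lay above the share over all genes, and the interval for a promoter peak contained it. Long genes offer more room for peaks, and hg19 lengths were known here only for listed genes, so the first share could not be compared at equal gene length. PAX-8 may also sit at members to which no peak was assigned, since a site can be given to a neighbouring gene.

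By family, 16 of 19 ADAMTS genes (84.2%), 35 of 44 collagen genes (79.5%), 16 of 22 MMP genes (72.7%) and 2 of 4 TIMP genes had a peak, with overlapping Wilson intervals. The collagens held 183 peaks, the ADAMTS genes 80, the MMPs 36 and the TIMPs 5. The 20 members without a peak included COL1A1, the major chain of type I collagen, COL3A1, the chain of type III collagen, and COL2A1, that of cartilage collagen. The other collagens without one were COL4A3, COL4A6, COL9A2, COL9A3, COL10A1 and COL17A1. Among proteases they were the collagenases MMP1 and MMP8, the gelatinase MMP2, the stromelysin MMP10, MMP25 and MMP26, the aggrecanase ADAMTS4, ADAMTS7, and ADAMTS13, which cuts von Willebrand factor. The inhibitors TIMP1 and TIMP4 had none either.

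**Figure D1:**
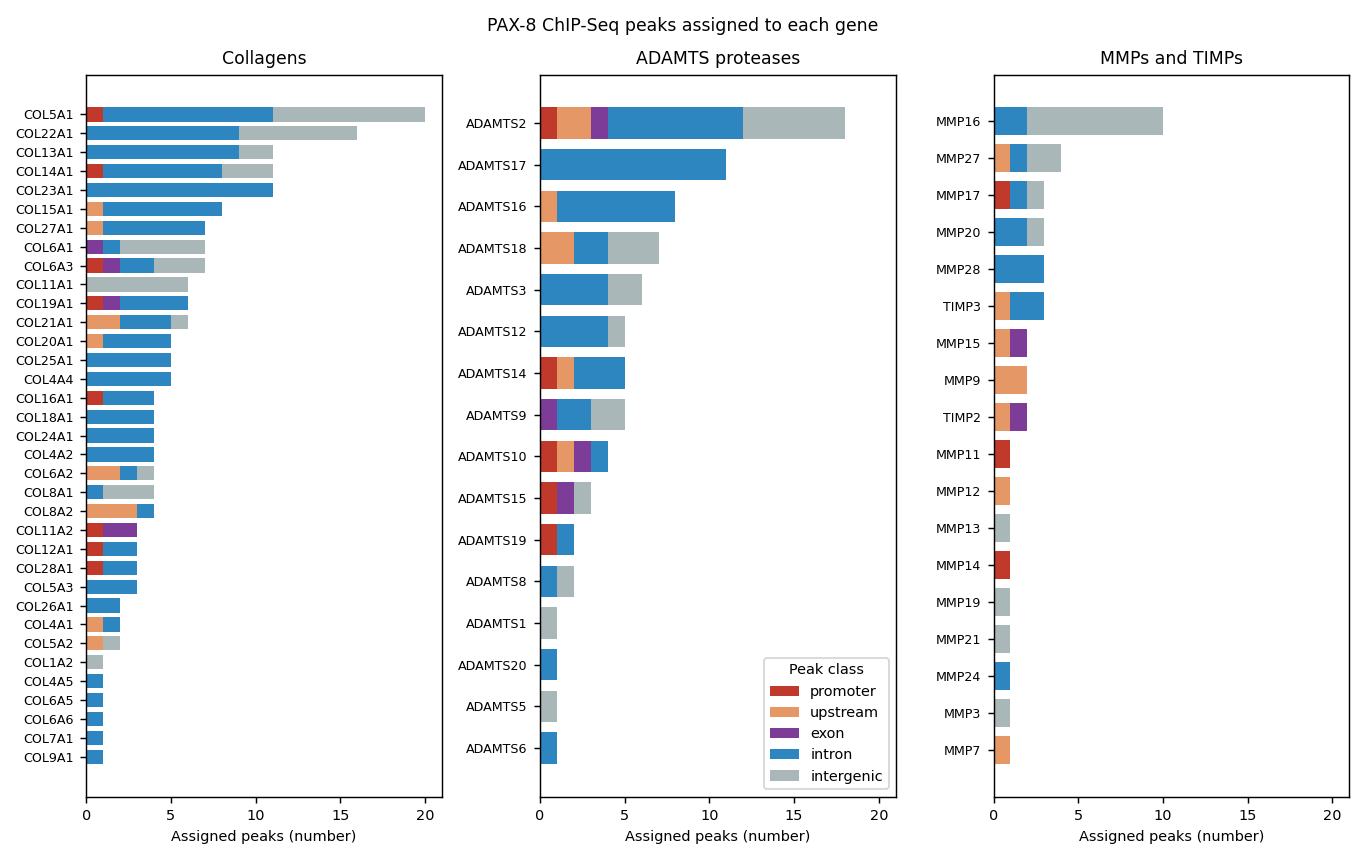
Number of assigned peaks (horizontal axis) for each of the 69 genes with a peak, with bars divided by peak class, for collagens, ADAMTS proteases, and MMPs and TIMPs. COL5A1 had 20 peaks and ADAMTS2 had 18, while 19 genes had 1 peak each.

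In 9 of the 16 promoter peaks the centre lay within 1 kb of the start. Measured by fold enrichment the highest was at MMP17, a membrane-anchored MMP, with 20 tags, a fold enrichment of 11.44 and a score of 92.87 at chr12:132314187-132314810, centred 1.56 kb downstream of the start. It was also the only promoter peak of the 16 with a fold enrichment of at least 10. The next was at ADAMTS2, which removes the amino-terminal propeptide of fibrillar procollagens, with 18 tags and a fold enrichment of 9.57 at chr5:178771762-178772563, a region that covers the listed start.

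ADAMTS14, another enzyme of the same procollagen-trimming group, had a promoter peak of 11 tags and a fold enrichment of 8.17, centred 0.502 kb downstream of the start. ADAMTS3, the remaining enzyme of that group, had 6 peaks and none in the promoter class. ADAMTS10, which acts on fibrillin microfibrils, had 17 tags and 7.35-fold enrichment at 0.417 kb, and ADAMTS15, a proteoglycan-cutting enzyme, had 18 tags and 5.36-fold enrichment centred 1.30 kb upstream. ADAMTS19, whose substrate is not well known, had a peak almost centred on its start, 0.020 kb upstream, with 13 tags and a fold enrichment of 6.31 at chr5:128795666-128796275. That peak was assigned to the promoter class of the antisense gene ADAMTS19-AS1 as well.

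Of the MMPs, 3 had a promoter peak. MMP14, the membrane-type MMP that activates the MMP2 proenzyme, had 12 tags and 7.35-fold enrichment at chr14:23305945-23306431, centred 0.394 kb downstream of the start, and this was its only peak. MMP11, a secreted enzyme of stromal cells, likewise had a single peak, with 13 tags and 6.54-fold enrichment at 1.43 kb. The third was that of MMP17.

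Among the 8 collagen promoter peaks the tags were highest in COL12A1, a fibril-associated collagen, with 30 tags (fold enrichment 6.85) centred 0.955 kb downstream of the start. COL14A1, of the same fibril-associated group, had 24 tags (5.47) at 0.090 kb upstream, and COL6A3, a chain of the beaded filaments, had 20 tags (6.56) at 0.985 kb downstream. The peak of COL11A2, a fibrillar chain of cartilage, lay over the start, with 14 tags (7.25) and its centre 0.034 kb downstream. The other collagen promoter peaks had 11 to 13 tags: COL16A1 (fold enrichment 8.17) and COL28A1 (7.89) upstream of the start, and COL19A1 (7.35) and COL5A1 (5.35) downstream of it. With an exact Poisson interval, 11 tags carry a range of 5.49 to 19.7 and 13 tags 6.92 to 22.2, so most of these peaks cannot be ordered by their tags. Tags were also set against those expected from each peak's length and its background, solved as described below. This ratio was 3.3 in COL12A1, 2.8 in COL14A1 and 3.84 in COL6A3. It was 3.7 in COL11A2, 3.96 in COL16A1, 3.34 in COL28A1, 3.67 in COL19A1 and 3.78 in COL5A1, so the order by tags was not kept.

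The 250 bases upstream of the RefSeq start of ADAMTS2 and ADAMTS19 are printed because a peak covered the listed start of each gene. A peak also covered the listed starts of COL11A2, which has several RefSeq windows, and COL14A1, which has none, and these are not printed. Both were read from RefSeq on GRCh38.p14, while the peaks are on hg19, and no coordinates were converted. Capitals mark CG dinucleotides, the methylatable sites of promoters. The ADAMTS2 stretch lies at chr5:179345462-179345711 on the minus strand and the ADAMTS19 stretch at chr5:129460048-129460297 on the plus strand.
ADAMTS2: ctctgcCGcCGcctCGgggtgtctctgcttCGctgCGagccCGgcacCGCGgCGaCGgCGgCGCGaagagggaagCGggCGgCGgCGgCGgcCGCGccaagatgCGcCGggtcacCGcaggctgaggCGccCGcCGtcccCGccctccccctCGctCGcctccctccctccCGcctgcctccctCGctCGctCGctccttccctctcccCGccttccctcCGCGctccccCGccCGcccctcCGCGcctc
ADAMTS19: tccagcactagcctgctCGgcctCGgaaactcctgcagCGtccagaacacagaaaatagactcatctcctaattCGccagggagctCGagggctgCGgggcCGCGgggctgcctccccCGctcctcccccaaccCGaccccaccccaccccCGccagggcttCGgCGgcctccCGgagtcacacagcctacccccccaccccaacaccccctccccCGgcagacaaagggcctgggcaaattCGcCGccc
The ADAMTS2 stretch is 80.0% G and C with 40 CG dinucleotides, and the ADAMTS19 stretch is 69.2% with 17. A search for the core letters GTCACGC and GTCATGC, bound by paired domains, covered RefSeq windows of 300 bases, both strands and every window of a gene, and the pair cannot match at the same position. None of the 13 promoter-peak members with such a window held either, against 5.78% of 15842 protein-coding genes. Over all members the comparison is void, since 58 of 89 (65.2%) had a window. The peaks themselves were not searched, because no hg19 sequence was at hand, and the absence of these letters from a window says nothing of PAX-8 itself.

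Most member peaks lay inside introns. Of the 304 peaks, 174 were intronic (57.2%, 51.6 to 62.7%), against 34.9% of all peaks, and 11 were exonic (3.62%, 2.03 to 6.36%), against 2.24%. Intergenic peaks made up 76 (25%, 20.5 to 30.2%), against 38.7%, and upstream peaks, from 2 to 20 kb before a start, 27 (8.88%, 6.18 to 12.6%), against 16.6%. Promoter peaks were 16 (5.26%, 3.27 to 8.38%), against 7.48% of all peaks, which lay inside the interval. All peaks include those assigned to noncoding genes only, while every member is protein-coding. These comparisons are therefore not between like genes, and shares beside protein-coding genes of like span are given below. The intronic share was 63.4% in collagens, 57.5% in ADAMTS genes and 27.8% in MMPs, many of which are short genes. Peaks of 1 gene share their locus, so the intervals are narrower than they would be over genes.

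**Figure D2:**
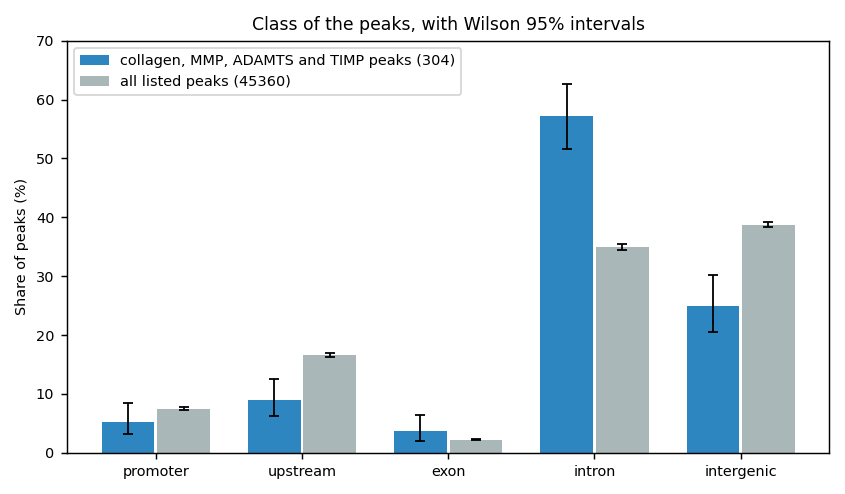
Share of peaks in each class (percent), for the 304 member peaks beside all 45360 listed peaks, with Wilson 95% intervals as bars. Introns held 57.2% of member peaks and 34.9% of all peaks, and intergenic sequence held 25% and 38.7%. All listed peaks include those of noncoding genes, while the members are all protein-coding.

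These genes are long, and among genes with at least 1 peak the number of peaks was close to that of other genes of like span. The listed transcript span had a median of 90.2 kb in members with a peak, against 33.7 kb over all protein-coding genes with a peak. In the 29 members spanning 150 kb or more there were 6.83 peaks per gene on average, against 6.89 in all protein-coding genes of that span with a peak. Genes without a peak enter neither mean, so these means do not bear on the share of genes with one. The same means were 3.21 against 3.22 from 50 to 150 kb and 2.35 against 2.11 below 50 kb. Counted inside the gene bodies, members had 197 peaks in 9.32 Mb, or 21.1 per Mb (exact Poisson interval 18.3 to 24.3), against 19.2 per Mb (18.9 to 19.5) over all genes with a peak, whose value lay inside that interval.

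The intronic share also moved with length. It was 64.1% (57.3 to 70.5%) of the 198 peaks of the longest members, against 69.4% in genes of the same span class, and 66.7% (52.1 to 78.6%) from 50 to 150 kb, against 49.3%. Below 50 kb it was 27.9% (18.2 to 40.2%), against 17.4%. So the excess of intronic peaks over all peaks was not present in the longest class and was present in both shorter ones. Against protein-coding genes of the same class, the intergenic share was 26.8% (21.1 to 33.3%) against 19.2% in the longest members. From 50 to 150 kb it was 8.89% (3.51 to 20.7%) against 25.7%, and below 50 kb 31.1% (20.9 to 43.6%) against 37.6%. Promoter shares, in the same order, were 3.03% (1.4 to 6.45%), 8.89% (3.51 to 20.7%) and 9.84% (4.59 to 19.8%), against 3.07%, 6.44% and 14.3%. The lower intergenic share thus lay beyond its interval only from 50 to 150 kb. Below 50 kb the interval contained the share of like genes, and in the longest class the share was higher than theirs. Of the 53 intergenic peaks in the longest class, COL5A1 held 9, MMP16 8, COL22A1 7, and COL11A1 and ADAMTS2 6 each. Along the gene body the peaks were spread, with 22.3%, 16.8%, 19.3%, 23.4% and 18.3% in 5 equal successive parts from the start, against 24.1%, 19.7%, 19.4%, 18.7% and 18.2% over all genes. As a description, the number of peaks and the span had a Spearman's rho of 0.554 across the 69 members and 0.455 across 10993 genes, where genes are not independent replicates.

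In strength the member peaks resembled the list as a whole. The median fold enrichment was 7.35 (range 4.15 to 13.07), against 7.35 over all peaks, the median number of tags was 14 (range 11 to 32), against 14, and the median length was 602 bases, against 590. A fold enrichment of at least 10 was listed for 17 member peaks (5.59%, 3.52 to 8.77%), against 4.63%. No member peak had more than 32 tags. The median score was 48.7, with a first quartile of 43.4, against a median of 48.1 over all peaks. No peak of the list scored below 40, so many member peaks lay near this limit. The lowest member score, 40.02, was that of the COL28A1 promoter peak. Member peaks had a median distance from the start of 56.8 kb, against 36.2 kb over all peaks, and 29.6% lay 100 to 300 kb away, against 18.6%. Member distances run to the member's own start, and those of all peaks to the nearest start of any assigned gene, noncoding ones included. The distances were not compared at equal gene span.

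**Figure D3:**
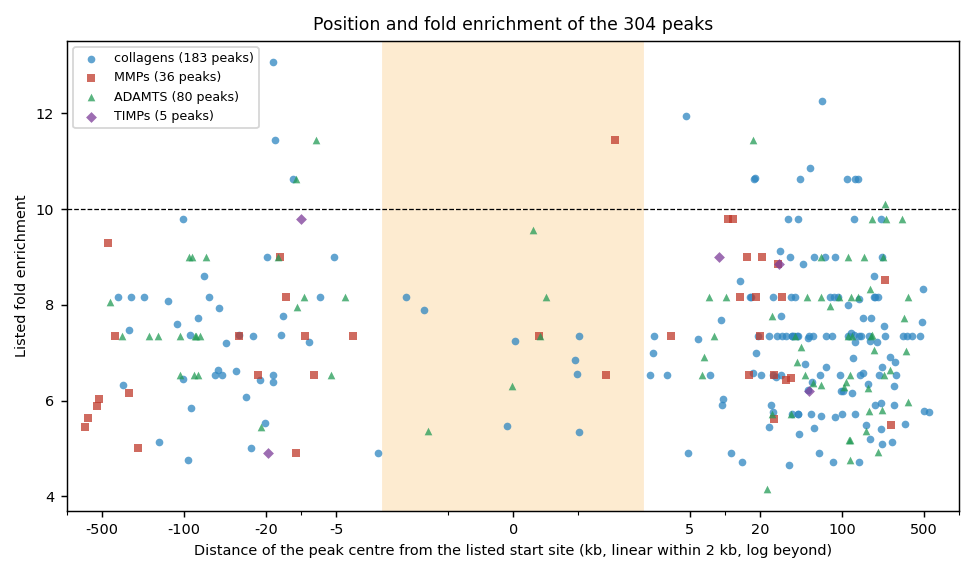
Listed fold enrichment (vertical axis) of each of the 304 peaks against its distance from the listed start site in kb (linear within 2 kb, shaded, and logarithmic beyond), by family. Of the 17 peaks at or above the dashed line at 10, 1 lies in the shaded promoter range, that of MMP17 at 11.44.

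The highest fold enrichment of all members was at COL5A2, a chain of type V collagen, which takes part in setting fibril diameter. Its peak at chr2:190061453-190062151 had 18 tags and a fold enrichment of 13.07, and lay 17.3 kb upstream of the start. COL3A1, its neighbour on chromosome 2, had no peak. Then came COL13A1, a transmembrane collagen, with 21 tags and 12.25-fold enrichment in an intron 67.2 kb into the gene. COL23A1, another transmembrane collagen, followed with 19 tags and 11.95-fold enrichment in an intron 4.66 kb from the start, at chr5:178012523-178012953. These genes had no promoter peak.

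A fold enrichment of 11.44 was listed for 4 peaks. Besides the MMP17 promoter peak they were an upstream peak of ADAMTS2 (20 tags, 7.53 kb before the start), an upstream peak of COL4A1 (17 tags, 16.7 kb before the start) and an intronic peak of ADAMTS14 (17 tags, 17.2 kb). COL5A1, the main chain of type V collagen, and COL11A2 came next, with 10.86 in an intron and 10.64 in an exon. A further 7 peaks were listed at 10.62, those of ADAMTS10, COL15A1, COL20A1, COL4A4 and COL13A1 and a pair of COL6A3. Ties of this kind came from the list itself. Among the 154 member peaks at the genome-wide background, defined below, there were 12 distinct fold enrichments. Of these peaks 44 had 7.35, whereas the other 150 peaks had 110 distinct values. How the listed value was computed was not stated, and it differed from tags over the tags expected from the solved background. That ratio had a median of 3.84 in member peaks at the genome-wide background, whose median listed value was 7.35. It was 4.33 in the COL5A2 peak listed at 13.07, 4.15 in the COL13A1 peak at 12.25 and 6.38 in the COL23A1 peak at 11.95.

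The smallest p-value belonged to the exonic COL11A2 peak at chr6:33141865-33142745, with 29 tags and a score of 108.64. An intronic COL5A1 peak followed with 32 tags, the most of any member peak, and a score of 106.42, and 2 further COL5A1 introns scored 95.83 and 95.13. COL6A2, a chain of the type VI beaded filament, had a score of 105.79 from 29 tags at 5.27 kb upstream of its start. The order by score and the order by fold enrichment differed, since the COL5A1 peak of 32 tags had a fold enrichment of 7.99. The intronic COL23A1 peak (101.37), the MMP17 promoter peak (92.87), an ADAMTS17 intron (89.54), the COL4A4 intron (85.76) and an intergenic COL22A1 peak (85.49) completed the 10 highest scores.

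The 8 members with 10 or more peaks held 108 of the 304 peaks. COL5A1 had 20, with 1 promoter, 10 intronic and 9 intergenic peaks, and the intergenic ones spread from 22.6 to 114.5 kb before the start. Its surroundings were also rich in peaks, with 141 other peaks within 1 Mb. This was the most among the 24 members with 5 or more peaks, and COL20A1 came next with 93. ADAMTS2 had 18, COL22A1, a collagen of tissue junctions, had 16, and COL13A1, COL14A1, ADAMTS17 and COL23A1 had 11 each. All 11 peaks of COL23A1 and all 11 of ADAMTS17 were intronic. Counting only peaks inside the gene body, the density was 5.42 peaks per 100 kb in COL5A1, 4.26 in ADAMTS2, 2.76 in COL22A1, 5.72 in COL13A1, 2.82 in COL14A1, 2.97 in ADAMTS17 and 3.12 in COL23A1.

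MMP16, a membrane-type MMP, had 10 peaks and the lowest value of these genes, 0.677 per 100 kb, since 8 of them were intergenic, from 247 to 703 kb before the start. COL11A1, a fibrillar chain of type XI collagen, had 6 peaks, all intergenic and 254 to 547 kb from its start, and none inside its listed span of 232 kb. Such peaks are assigned to these genes by position alone. ADAMTS16 and COL15A1 had 8 peaks each, all in introns but 1 upstream peak in each gene.

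Of all members, ADAMTS2 held the most peaks within a window of 20 kb. Of its 18 peaks, 6 intergenic ones lay within 17.4 kb at chr5:178837799-178855209, from 65.7 to 82.5 kb before the start, each with 11 to 14 tags and a fold enrichment of 6.54 to 8.99. Its peaks with the highest fold enrichment lay elsewhere, 7.53 kb before the start (11.44), in an exon 231 kb into the gene (10.1), in an intron 179 kb into it (9.80) and at the promoter (9.57). In ADAMTS10 all 4 peaks lay within 19.1 kb, and 4 intergenic peaks of COL6A1 lay within 16.7 kb. Over all members, neighbouring peaks of the same gene were separated by a median of 20.3 kb, and 15 of 235 gaps were under 2 kb, so some neighbours may be 1 region listed in pieces.

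Several members lie next to each other in the genome. The type VI genes COL6A1 and COL6A2 together had 11 peaks between chr21:47406162 and chr21:47548151, and these were all the listed peaks in that stretch of 142 kb. COL6A1 had 7 of them and COL6A2 had 4, with no promoter peak in either gene. COL6A3, the chain that joins them in the filament, had 7 peaks on chromosome 2, including its promoter peak and 2 intergenic peaks at 10.62. COL6A5 and COL6A6 had 1 intronic peak each.

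Type IV collagen genes stand head to head in pairs that share the sequence between their starts. COL4A1 had 2 peaks and COL4A2 had 4, COL4A4 had 5 and its partner COL4A3 none, and COL4A5 had 1 and its partner COL4A6 none. None of these 6 genes had a promoter peak. The nearest peak to the start of COL4A1 or COL4A2 was 16.6 kb away, and the COL4A1 upstream peak at chr13:110975819-110976640 lay inside the COL4A2 gene. The single COL4A5 peak, in an intron on the X chromosome, had 21 tags and a fold enrichment of 9.80.

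The sequence between COL4A1 and COL4A2 is printed because the windows of both genes cover it, and neither carried a promoter peak. The stretches are the 250 bases upstream of each RefSeq start on GRCh38.p14, at chr13:110307158-110307407 on the minus strand and chr13:110307034-110307283 on the plus strand, and capitals again mark CG.
COL4A1: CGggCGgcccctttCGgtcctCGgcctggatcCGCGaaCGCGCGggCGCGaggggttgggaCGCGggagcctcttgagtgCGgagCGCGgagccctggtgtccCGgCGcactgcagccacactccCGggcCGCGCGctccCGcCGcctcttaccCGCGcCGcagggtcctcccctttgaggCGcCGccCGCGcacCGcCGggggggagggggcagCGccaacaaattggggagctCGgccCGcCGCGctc
COL4A2: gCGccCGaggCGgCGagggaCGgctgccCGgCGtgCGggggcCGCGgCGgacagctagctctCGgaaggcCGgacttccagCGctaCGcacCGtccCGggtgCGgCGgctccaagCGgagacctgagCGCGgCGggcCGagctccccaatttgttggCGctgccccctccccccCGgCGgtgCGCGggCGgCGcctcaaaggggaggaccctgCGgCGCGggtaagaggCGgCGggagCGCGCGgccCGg
They share 126 bases on opposite strands, with 38 CG dinucleotides in the COL4A1 stretch and 40 in that of COL4A2. At 77.6% and 78.8% G and C they were similar in composition to the ADAMTS2 stretch, which had a peak over its start.

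COL8A1, a network collagen made by smooth muscle cells of injured arteries, had 4 peaks, 1 in an intron and 3 intergenic ones 219, 284 and 367 kb before the start, with 11 to 13 tags and fold enrichments of 8.12 to 8.17. COL18A1, whose tail is released as endostatin, had 4 intronic peaks 2.47 to 41.6 kb from the start, with 12 or 13 tags and fold enrichments of 7.35 to 8.99. COL1A2, the other chain of type I collagen, had 1 intergenic peak 39.4 kb from its start, with 13 tags and a fold enrichment of 8.17. Tag numbers in these genes were near the smallest in the list, 11.

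The MMP gene cluster of chromosome 11 held 11 peaks and no promoter peak. Of its 9 genes, 6 had a peak, and the 11 peaks of MMP7, MMP20, MMP27, MMP3, MMP12 and MMP13 were all the listed peaks between the outermost ones, 375.3 kb apart. The collagenases MMP1 and MMP8 and the stromelysin MMP10, in the same cluster, had none. MMP12, the macrophage elastase, had a peak 3.60 kb before its start, with 14 tags and a fold enrichment of 7.35, and MMP7, matrilysin, one 13.4 kb before its start with 14 tags and 8.17. The peak of MMP3, a stromelysin, lay 18.3 kb beyond its start in intergenic sequence, with 18 tags and a fold enrichment of 8.17. Fold enrichments in the cluster ran from 5.62 to 8.85.

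**Figure D4:**
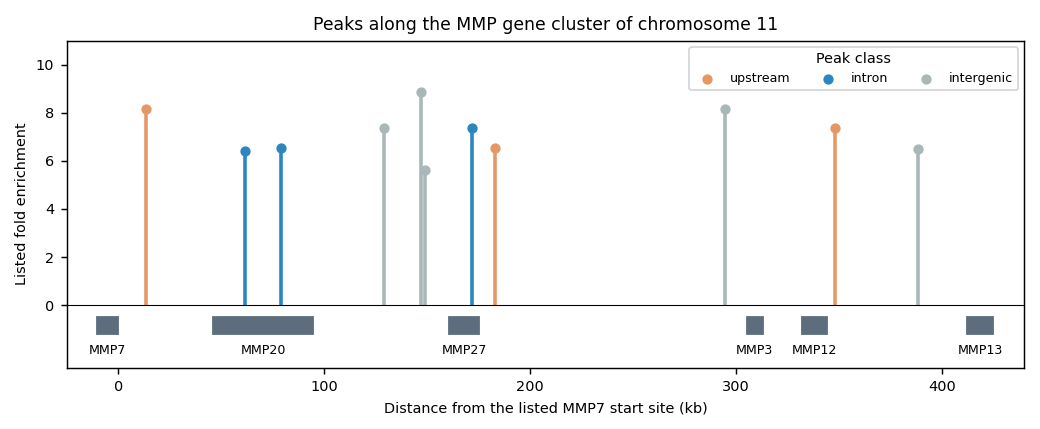
Listed fold enrichment (vertical axis) of the 11 peaks along the MMP cluster of chromosome 11, by distance from the listed MMP7 start in kb and coloured by class, with the 6 genes that had a peak drawn as boxes. The values run from 5.62 to 8.85, and no peak is in the promoter class.

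Outside the cluster, the gelatinase MMP9, a product of macrophages, had 2 upstream peaks. The peak 9.25 kb before its start had 17 tags, a fold enrichment of 7.35 and a score of 84.85, the eleventh highest of the 304, and that at 15.3 kb had 11 tags and 8.99. MMP19 had 1 intergenic peak 23.3 kb before its start, with 11 tags and a fold enrichment of 6.54. Of the ADAMTS genes that cut proteoglycans, ADAMTS1 and ADAMTS5, neighbours on chromosome 21, had 1 intergenic peak each, with 12 tags (5.72) and 15 tags (6.54).

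Of the inhibitors, TIMP2 had an upstream peak of 13 tags and 9.80-fold enrichment, 10.1 kb before its start, and an exonic one of 12 tags and 6.21 at 51.6 kb. TIMP3, the inhibitor that binds to the matrix, had 3 peaks, with 14 tags (8.99) at 8.92 kb, 15 tags (8.85) at 28.9 kb and 11 tags (4.90) at 19.1 kb before the start. The TIMP3 gene lies inside an intron of SYN3, and its 2 intronic peaks were assigned to SYN3 as well. In all, 7 member peaks were assigned to another gene too.

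Assignment to neighbours also took peaks away from members. Inside the listed span of members, 13 peaks were assigned to another gene alone, 4 of them in COL4A2, 3 in COL27A1 and 2 in COL5A1. The highest fold enrichment of these, 11.44 with 22 tags, was at chr13:111159911-111160927 in the COL4A2 gene, assigned to the promoter of COL4A2-AS1. The 2 peaks in COL5A1 were assigned to COL5A1-AS1 and had 28 tags (5.71) and 23 tags (7.83).

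The background against which the peaks were called differed between these genes. It was solved for each peak from its listed tags, length and p-value, and the commonest value over the list was 5.94 tags per kb. Within 1% of it lay 154 of the 304 member peaks (50.7%, 45.1 to 56.2%), against 55.7% of all peaks. None of the 37 member peaks on chromosome 8 and none of the 19 on chromosome 6 did, against 1.76% and 3.01% of all peaks there. Outside these chromosomes the share was 62.1% in members, against 63.1% of all peaks.

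Among the 24 members with 5 or more peaks, 9 had no peak at the genome-wide background, namely COL5A1, COL11A1, COL14A1, COL19A1, COL21A1, COL22A1, ADAMTS12, ADAMTS16 and MMP16, with 88 peaks together. The background of COL5A1 peaks was 1.07 to 1.72 times the genome-wide value and that of ADAMTS12 peaks 1.5 to 1.83 times. Other peaks within 1 Mb of these 9 genes were at the genome-wide value in 0 to 19.9% of cases, against 70.7 to 83.3% around the other 15 genes. Member peaks above the genome-wide background had a median of 16 tags and a fold enrichment of 6.56, and those at it 13 tags and 7.35. The same medians over all peaks were 16 tags and 6.80 above it and 13 tags and 7.35 at it. Below it lay 5 member peaks, with medians of 11 tags and 8.99, and 812 of all peaks, with the same medians. Copy number of these regions in the cells was not measured here, and the part of the background in the number of peaks per gene was not tested.

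**Figure D5:**
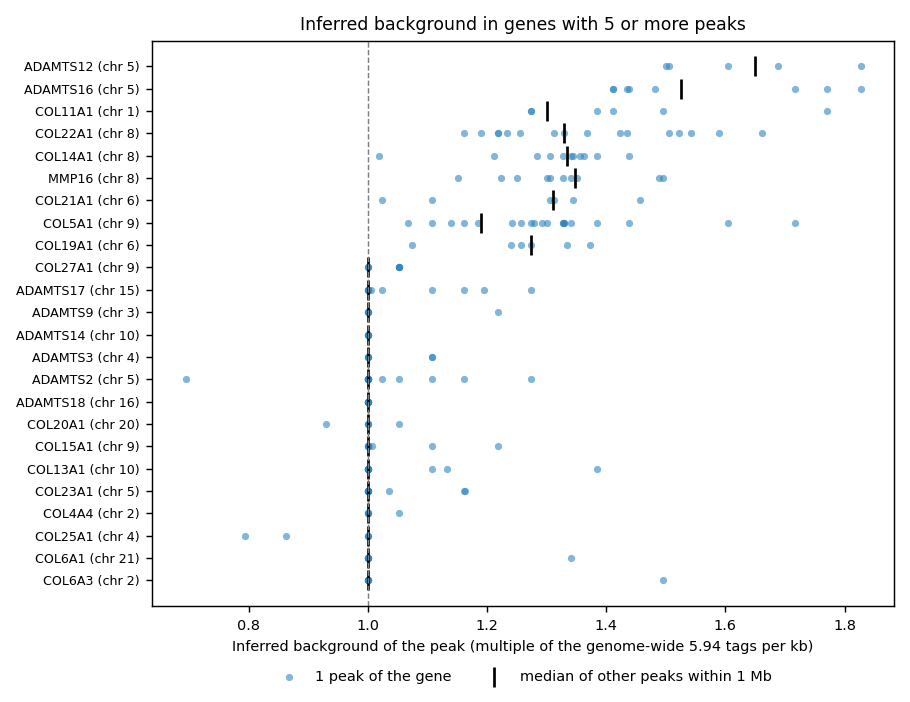
Background solved for each peak, as a multiple of the genome-wide 5.94 tags per kb (horizontal axis), for the 24 genes with 5 or more peaks, with 1 point per peak and a tick at the median of other peaks within 1 Mb. The 9 genes at the top have no peak at 1, and their surroundings lie above 1 as well.

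Partner genes of the matrix, on 4 lists chosen by function, gave similar shares. Of 78 partner genes 60 had a peak (76.9%), against 54.8% of protein-coding genes, and 13 had a promoter peak (16.7%), against 13.3%. Among 25 genes that fold, trim or crosslink collagen, 18 had a peak and 7 a promoter peak: the collagen chaperone SERPINH1, the crosslinking enzymes LOX, LOXL1 and LOXL2, the propeptide-trimming TLL1, the glycosyltransferase COLGALT2 and the hydroxylase P3H1. The LOX promoter peak had 13 tags and a fold enrichment of 7.35, centred at -0.26 kb from the start. That of P3H1 had 126 tags but a fold enrichment of 4.27. The highest fold enrichments of this list were 13.07 in an intergenic TLL1 peak and 11.3 in an intron of LOXL2.

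Of 12 collagen receptor genes 9 had a peak, and GP6, the platelet collagen receptor, had a promoter peak and an upstream peak of 12.25-fold enrichment, followed by LAIR1, an inhibitory collagen receptor, with 9.80 in an intergenic peak. Of 16 basement membrane partners 14 had a peak, with 1 promoter peak, at the laminin gene LAMA4. The highest fold enrichments there were 12.25 in an intron of the laminin gene LAMC3 (16 tags) and 10.18 in an intergenic peak of the nidogen gene NID1 (125 tags). The last list joined matrix substrates and protease inhibitors with plasminogen, its activators and ADAMTS-like genes. Of its 25 genes 19 had a peak, and those with a promoter peak were BCAN, FN1 and the ADAMTS-like genes ADAMTSL2 and ADAMTSL4. COMP, a cartilage matrix protein cut by ADAMTS proteases, had the highest fold enrichment of that list, 12.25 in an upstream peak centred at -2.44 kb from its start, and an upstream peak of ADAMTSL4 had 12.07. These lists were not selected for length, so their shares carry the same limit as that of the members.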

How the data were processed

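The authors performed PAX-8 ChIP-Seq in THP-1 foam cells after C18-3OH, and their deposited list of peaks of 1 ChIP library over 1 Input library was the starting point. The deposited columns hold a count of tags per peak, a fold enrichment (a ratio), a score equal to -10 log(p) and an FDR in percent. Of tools and builds, FastQC and hg19 appear in the submitters' processing notes. The aligner, peak caller and duplicate filter were not stated in the labels or methods. Depth per library is not given either, so precision was taken from the tags of each peak.

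The table had 103443 lines, one per peak and transcript, and repeats of a peak position were counted as 1 peak. Distances ran from -2000 to 1999 bp in the promoter class, while upstream peaks had -20000 to -2002 bp. Symbols were matched to a RefSeq table of GRCh38.p14 by transcript accession (15627), symbol (59) or synonym (34), and 16 were unmatched. Its names and gene order were used, but no lengths or peak coordinates. Background was solved as the Poisson mean, per base of peak, whose upper tail beyond the listed tags equals the listed p (base 10). The 4 peaks at the largest score, 3100, were left out of that step. The solving step was tested on simulated data scored by this same Poisson formula, so that test checks the arithmetic only. Whether the unnamed peak caller used this formula was not tested.

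No test was run, since 1 list has no replicates. Shares carry Wilson intervals and tags exact Poisson intervals. Members and lists were chosen with earlier results of these data known. Named were members with a promoter peak, the 10 peaks with the highest fold enrichment and the 10 with the smallest p-value with ties, the 10 genes with the most peaks, all TIMPs, and members fixed by role. Of partner lists, those with a promoter peak or 1 of the 2 highest fold enrichments of a list were named. COL2A1, COL11A1, COL4A5 and the other genes outside this rule were named after their values were seen. RefSeq promoter windows hold 250 bases before and 50 after a start. Alternatives were limits on fold enrichment, FDR and distance, other promoter windows, merged peaks, a background tolerance of 2%, MMP23B added and sets without named genes or chromosomes. Software was scipy 1.17.1, pandas 2.3.3, numpy 2.4.6, matplotlib 3.10.9 and Python 3.11.15.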

Additional observations from a re-analysis of the deposited data

How the results depend on the processing

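Counts were compared with the value given above by a limit of 1.5 times, and shares and medians by its 95% interval. Of 54 alternative values, 41 stayed within these limits and 13 did not. With peaks of a fold enrichment of at least 10 only, 14 members had a peak and 1 a promoter peak, the medians were 10.64 for fold enrichment, 19 for tags and 1 for peaks per member, and 70.6% of the 17 peaks lay at the genome-wide background. The limit keeps fewer peaks, which sets the counts and the median fold enrichment. With peaks within 100 kb of the start only, promoter peaks made up 8.42% of them. With a promoter window of 1 kb, 9 members had a promoter peak and the promoter share was 2.96%, and with 5 kb the share was 8.55%. These shares move because the window or the denominator moves. With GTCACGC as the only motif, 0 members held it in a RefSeq window, against 1 with both motifs, ADAMTS3.

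Among alternatives chosen after seeing the data, leaving out COL5A1, COL22A1, COL14A1 and MMP16 gave 62.3% of member peaks at the genome-wide background, and leaving out chromosomes 6 and 8 gave 62.1%, against 50.7% with all. None of the peaks left out lay at that background, so leaving them out could only raise the share. No paired analysis was possible because it would need replicates, and the deposited peaks compare 1 ChIP library with 1 Input library. With 11 to 32 tags per member peak, differences in strength between single peaks were mostly not detectable at this depth, and whether another library would list the same peaks was not analysed here. A search of the peaks for PAX motifs was not run, since it needs hg19 sequence.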

Other observations

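Genes with related names that the symbol rule leaves out had peaks too. MMP2-AS1, antisense to the MMP2 gene that had no assigned peak, had an intronic peak of 13 tags (fold enrichment 8.17) and an upstream peak of 12 tags (7.70). COL1A2-AS1 had 4 peaks, of which 2 were intronic, with 17 tags (8.99) and 11 tags (4.90), while COL1A2 itself had 1. COL4A2-AS1 had 3 peaks, including the promoter peak of 22 tags at 11.44-fold enrichment. COL18A1-AS2 had a promoter peak of 12 tags (7.73). Reads were not assigned to a strand in the list, so a peak between a gene and its antisense partner cannot be told apart.

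The transcribed pseudogene COL6A4P2 had 6 peaks, with 11 to 14 tags. MMP23B, whose symbol ends in a letter, had 2 upstream peaks, of 16 tags (7.35) and 12 tags (5.72). The ADAMTS-like genes, which encode matrix proteins without the protease domain, had 11 peaks in ADAMTSL1, 4 in ADAMTSL2, 4 in ADAMTSL3 and 3 in ADAMTSL4. Of the 11 ADAMTSL1 peaks, 8 were intergenic, centred from -441 to -115 kb from the start. ADAMTSL4 had 2 promoter peaks, with 22 tags (7.47) centred at -0.131 kb from the start and 17 tags (6.23) at 1.47 kb, and an upstream peak of 25 tags at 12.07-fold enrichment.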
